A study of Rattus norvegicus with 10 samples.

Results

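The genes described here encode 6 microtubule-associated proteins (Map1a, Map1b, Map2, Map4, Map6 and Mapt) and 3 scaffold proteins of the JNK cascade (Mapk8ip1, Mapk8ip2 and Mapk8ip3). They are 9 of the 14166 genes in the bulk table and 9 of the 25399 features in the nucleus matrices, and all 9 were found in both. The set was chosen by the level of Map1a and Mapk8ip2 in nuclei, which was higher in rats with TBI than in controls. The nucleus values of TBI against control are therefore a description without a test. The study reported both genes as higher after TBI in an astrocyte cluster. The bulk libraries came from other rats and did not enter the choice.

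Microtubule-associated proteins bind the tubulin lattice and set how stable and how bundled it is. MAP1A and MAP2 are known from dendrites of mature neurons, MAP1B from growing axons, and tau, the product of Mapt, from axons and, after brain trauma, from its phosphorylated and aggregated forms. The JNK-interacting proteins hold the kinases of the JNK cascade together and also link cargo to kinesin motors, so the 2 groups meet on the microtubule: JNK phosphorylates several microtubule-associated proteins.

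All rats were male Sprague-Dawley rats, and the ipsilateral dentate gyrus was taken. Rats with TBI had a craniectomy and a lateral fluid percussion injury (LFPI) and were killed 3 weeks later, sham rats had the surgery without the pressure pulse, and the naïve rat had no surgery. For bulk RNA-seq there were 6 libraries, 3 from sham rats and 3 from rats with TBI, with 25121893 to 44649404 estimated transcript counts each. Single-nucleus RNA-seq (snRNA-seq) came from 2 TBI rats, 1 sham rat and 1 naïve rat. Sham and naïve were pooled as the control group, which therefore holds an operated and an unoperated rat. After the study's filters 55124 of 55863 nuclei were kept, with 11285 to 16931 nuclei and 26086141 to 35293678 UMIs per rat.

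Nuclei fell into 23 clusters, of which 18 took the name of a class from its markers, and the name "-like" marks that it was rebuilt here. Some libraries differed in ways that touch the values below. Of the stored matrix entries, 1.63% held the value 0 in TBI rat 1, 27.4% in TBI rat 2, 11.1% in the sham and 15.5% in the naïve library, so the libraries carried unequal numbers of stored zeros; the cause was not tested. Transcripts of neurons were read in every class: the summed level of 8 of them (Slc17a7, Camk2a, Syt1, Snap25, Nrgn, Ddn, Grin1 and Rbfox3) was 7487 to 8006 CPM (UMIs scaled to the total of the class in that rat) in glutamatergic neuron-like nuclei and still 4457 to 6128 CPM in microglia-like nuclei. A member's level in a glial class is read against that background. Cluster 8 (2061 nuclei) was left unnamed because no class met the marker rule there, and mitochondrial transcripts led it. Clusters 16, 17 and 18, counted as oligodendrocyte-like, microglia-like and precursor-like, had 51.9%, 38.3% and 62.5% of their nuclei marked by doublet score. The astrocyte-like class held such nuclei too. In a finer clustering, 1 cluster of 995 astrocyte-like nuclei had 55.3% marked, with 271 and 209 nuclei from TBI rats 1 and 2, 394 from the sham and 121 from the naïve rat. Among kept nuclei, 314 barcodes (0.573%) occurred in more than 1 library.

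The promoter windows of Map1a and Mapk8ip2 are shown because both genes chose the set. They are the 250 bases before the RefSeq start of each gene in the assembly GRCr8, which is not the Rnor_6.0 assembly to which the nuclei were mapped. Capitals mark the GC box GGGCGG on either strand, the letters bound by Sp1-type factors.

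Map1a, GRCr8 chr3:128722445-128722694, plus strand: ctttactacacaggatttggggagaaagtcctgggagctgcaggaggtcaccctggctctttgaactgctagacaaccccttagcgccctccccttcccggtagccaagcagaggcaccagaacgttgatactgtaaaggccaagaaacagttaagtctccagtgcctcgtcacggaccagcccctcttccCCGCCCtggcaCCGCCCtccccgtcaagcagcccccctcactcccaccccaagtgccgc
Mapk8ip2, GRCr8 chr7:122406100-122406349, plus strand: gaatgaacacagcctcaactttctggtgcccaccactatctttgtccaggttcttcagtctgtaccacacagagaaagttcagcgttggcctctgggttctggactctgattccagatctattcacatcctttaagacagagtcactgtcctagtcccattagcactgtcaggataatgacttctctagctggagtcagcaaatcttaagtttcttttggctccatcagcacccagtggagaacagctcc

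The Map1a window held 2 GC boxes and 60.4% G or C, and the Mapk8ip2 window held none and 47.2%, against a median of 52.0% over 27457 promoters. A GC box occurred in 32.4% of all promoter windows. The AP-1 site TGANTCA, to which the JNK target c-Jun binds (6.36% of windows), the cAMP response element TGACGTCA (1.70%), the CCAAT box (34.3%) and the TATA box TATAAA (13.1%) were searched on both strands and matched neither window. The E box CANNTG (65.2% of windows) matched once in the Map1a window, sharing no letters with a GC box, and not in the Mapk8ip2 window. A match describes letters only. The table held 5 of the 9 members. Among the others, Mapk8ip3 had 2 GC boxes, Map1b had 1 TATA box and no GC box, and Map2 had neither and 32.0% G or C.

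Members differed in the class of nuclei in which they were highest. For Map1a and Mapk8ip2 this order is not independent of the choice, because the means include the TBI values that chose them. Whether the astrocyte cluster mentioned above shares nuclei with cluster 8 was not tested, so the study's result is not to be set against astrocyte-like nuclei alone. In cluster 8, 33.8% and 62.7% of nuclei in TBI rats 1 and 2 had a Map1a UMI, against 21.2% in the sham and 32.9% in the naïve rat. In astrocyte-like nuclei 48.7% and 62.7% did, against 33.6% and 51.3%. Levels are given as the mean of 4 rats with its SD, and since the classes share their libraries the order is a description. Map1a was highest in cluster 8 with 605 ± 563 CPM (SD, n = 4), in astrocyte-like nuclei with 454 ± 212 CPM and in pericyte-like nuclei with 454 ± 444 CPM. It was 114 ± 23.4 CPM in glutamatergic and 144 ± 24.3 CPM in GABAergic neuron-like nuclei. The lowest astrocyte-like value (303 CPM) was above the highest of both neuron classes (164 CPM), whereas cluster 8, astrocyte-like and pericyte-like nuclei overlapped over rats. The order of these 3 rested on TBI rat 2 (1441 CPM in cluster 8 and 1118 CPM in pericyte-like nuclei). In the controls astrocyte-like nuclei were above cluster 8, with 303 against 212 CPM in the sham and 394 against 382 CPM in the naïve rat.

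Map1b, the MAP1 of growing axons, was highest in cluster 8 (2572 ± 875 CPM) and glutamatergic neuron-like nuclei (2051 ± 119 CPM), whose ranges overlapped, and lowest among named classes in endothelial cell-like nuclei (889 ± 196 CPM). Map2, the dendritic protein, ranged from 472 ± 109 CPM in endothelial cell-like to 1116 ± 71.6 CPM in glutamatergic neuron-like nuclei among named classes. Cluster 20, a cluster of 308 unnamed nuclei led by Enpp6 and Bcas1, had the highest Map2 (1547 ± 228 CPM) and Mapt (2185 ± 334 CPM), and no rat of any other group reached its lowest Map2 value, while for Mapt cluster 22 (49 nuclei) reached 2023 CPM, above the lowest value of cluster 20 (1849 CPM). Map4, the member of the MAP2 and tau family found outside neurons, had the reverse order, with 327 ± 35.4 CPM in microglia-like and 325 ± 27.8 CPM in endothelial cell-like against 148 ± 14.6 CPM in glutamatergic neuron-like nuclei, and here the ranges of the 2 high classes overlapped and lay above the neurons. Map6, which stabilises microtubules against cold, was highest among named classes in GABAergic neuron-like nuclei (127 ± 18.7 CPM).

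Mapt was 1465 ± 183 CPM in oligodendrocyte-like nuclei, above every rat's value in both neuron classes (538 to 938 CPM), and 346 ± 24.1 CPM in endothelial cell-like nuclei. Within the oligodendrocyte-like class, cluster 5 alone, without cluster 16, had 1835 ± 205 CPM. Mapk8ip2 (JIP2) had the same leading groups as Map1a: 172 ± 126 CPM in cluster 8, 104 ± 33.5 CPM in astrocyte-like and 103 ± 48.4 CPM in pericyte-like nuclei. The ranges of these groups overlapped, and the highest value of cluster 8 was that of TBI rat 2 (356 CPM). Glutamatergic neuron-like nuclei had 46.6 ± 5.92 CPM. Mapk8ip1 (JIP1) was highest in cluster 8 as well (94.4 ± 58.2 CPM), with 50.9 to 179 CPM over the rats. Pericyte-like nuclei (69.8 ± 32.9 CPM), cluster 15 (67.2 ± 34.7 CPM) and astrocyte-like nuclei (62.6 ± 22.3 CPM) followed, each overlapping the next. Mapk8ip3 (JIP3), also a kinesin adaptor, ranged among named classes from 94.8 ± 9.97 CPM in endothelial cell-like to 159 ± 4.36 CPM in GABAergic neuron-like nuclei.

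**Figure D1:**
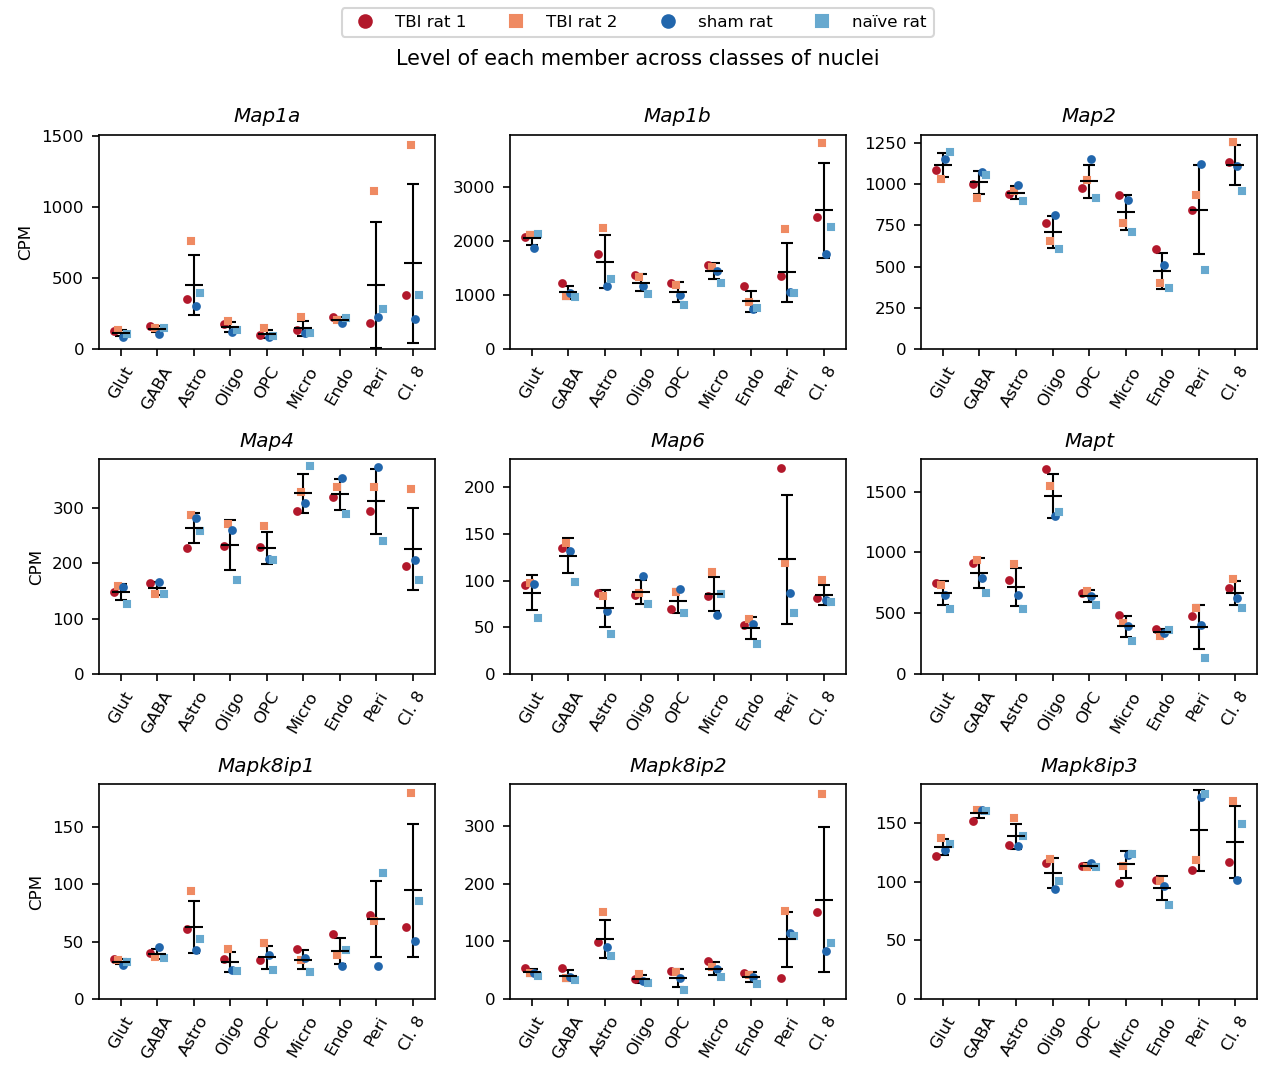
Level of each member in 8 named classes of nuclei and cluster 8 (x axis; Glut and GABA, neuron-like; Astro, astrocyte-like; Oligo, oligodendrocyte-like; OPC, precursor-like; Micro, microglia-like; Endo, endothelial cell-like; Peri, pericyte-like; Cl. 8, cluster 8), in CPM (y axis from 0), with 1 point per rat and a black mean with SD over the 4 rats. Mapt stands highest in oligodendrocyte-like nuclei and Map4 in microglia-like and endothelial cell-like nuclei. Map1a and Mapk8ip2 stand highest in cluster 8, astrocyte-like and pericyte-like nuclei, whose ranges overlap.

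Over all nuclei, Map1a was 171 CPM in TBI rat 1, 262 CPM in TBI rat 2, 117 CPM in the sham and 159 CPM in the naïve rat. Both TBI rats were above both controls, TBI rat 1 by little over the naïve rat, and the log2(CPM + 1) difference of the group means, TBI minus control, was 0.62. Mapk8ip2 was 61.2 and 66.5 CPM in the TBI rats against 50.5 CPM in the sham and 44.4 CPM in the naïve rat, a difference of 0.42 without overlap. Mapt was 803 and 834 CPM against 694 and 577 CPM (0.37). Mapk8ip1 was 40 and 46.9 CPM against 33.6 and 36.0 CPM (0.31).

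The other members moved less, overlapped or, for Map6, depended on the naïve rat. Map1b was 1831 and 1900 CPM in the TBI rats against 1602 and 1811 CPM (0.13), again without overlap. Map6 was 98.1 and 100 CPM against 96.7 CPM in the sham rat and 61.3 CPM in the naïve rat, so that its difference of 0.36 was 0.04 without the naïve rat. Map2 went the other way, with 1041 and 981 CPM against 1111 and 1107 CPM (-0.13), and Map4 and Mapk8ip3 overlapped (0.13 and 0.01). In all, 6 of the 9 members lay above and 1 below in both TBI rats, where 23.3% and 10.2% of the 17977 genes with at least 10 UMIs did so, and the members' median difference was 0.31 against 0.05 over all genes; the rule used this contrast, so nothing is read from these counts. The stored zeros, counted as 1 UMI each, changed the Map1a difference to 0.58 and that of Mapk8ip2 to 0.38.

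Among glutamatergic neuron-like nuclei, Map1a was 129 and 136 CPM in the TBI rats, 83.8 CPM in the sham and 109 CPM in the naïve rat, a difference of 0.47 without overlap. It was higher in both TBI rats in each of the 6 clusters of this class and in none of the 3 GABAergic clusters, where the GABAergic class as a whole overlapped (164 and 148 against 109 and 154 CPM). Clusters share the same rats and are not replicates. The largest of the 6 differences was in cluster 14 (0.72), a cluster of 818 nuclei led by Mylk, Pappa2 and Gpr139, with 114 and 152 CPM against 72.1 and 87.8 CPM. Mapk8ip2 in the same cluster was 77.2 and 80.0 CPM against 57.7 and 53.2 CPM (0.50). Of the 9 clusters named as neurons, Mapk8ip2 lay above in both TBI rats in 4 and below in 1, with differences from -0.26 to 1.02. Over the whole glutamatergic class Mapk8ip2 was 54.6 and 45.8 CPM against 45.6 and 40.4 CPM (0.22), with TBI rat 2 and the sham rat almost level.

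Mapt was higher in both TBI rats in 9 of 9 clusters named as neurons, by 0.29 to 0.40, with 746 and 736 CPM against 647 and 538 CPM in the glutamatergic class and 915 and 938 CPM against 788 and 671 CPM in the GABAergic class. Map2 was lower in both TBI rats in 6 of the 9 clusters and in both classes (-0.15 in each). Map1b was on 1 side in none of the 9. The 9 clusters come from the same rats and are not replicates. How many of all genes lay on 1 side in every neuron cluster was not counted. The unnamed clusters 9 and 15 had neuronal transcript sums as high as those of neurons (9204 to 10698 CPM and 7486 to 8987 CPM). Map1a lay above and Map2 below in both TBI rats in each of them, whereas Mapt lay above in cluster 9 (0.23) and overlapped in cluster 15 (769 and 727 against 737 and 665 CPM, 0.09). Cluster 15 held only 24 nuclei of TBI rat 2 and 11 of the naïve rat. In glutamatergic neuron-like nuclei 4 members lay above (20% of all genes did) and 1 below (8.73%), and in GABAergic neuron-like nuclei 2 above (19%) and 1 below (9.78%).

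In several other classes the difference of Map1a depended on TBI rat 2. Astrocyte-like nuclei had 353 CPM of Map1a in TBI rat 1, 767 CPM in TBI rat 2, 303 CPM in the sham and 394 CPM in the naïve rat, so that TBI rat 1 lay between the controls. The difference of 0.59 was 0.03 without TBI rat 2 and 1.15 without TBI rat 1. Microglia-like nuclei had 138 and 227 CPM against 117 and 113 CPM (0.62, or 0.26 without TBI rat 2), and without cluster 17, a choice made after seeing the data, 0.47 with overlap. Oligodendrocyte-like nuclei had 176 and 200 CPM against 119 and 138 CPM (0.55), and there the value was 0.45 without TBI rat 2. In pericyte-like nuclei 66 of the Map1a UMIs came from TBI rat 2 and 5, 8 and 13 from TBI rat 1, the sham and the naïve rat, and the difference of 0.82 turned to -0.48 without TBI rat 2.

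Mapk8ip2 in astrocyte-like nuclei was 99.2 and 152 CPM against 89.9 and 74.5 CPM (0.58, or 0.27 without TBI rat 2), with no overlap. Map1b (1763 and 2245 against 1172 and 1307 CPM, 0.68), Mapk8ip1 (61.3 and 94.1 against 43.1 and 51.9 CPM, 0.67), Map6 (0.64) and Mapt (0.50) also lay above in both TBI rats there. The 8 neuronal transcripts moved the same way in astrocyte-like nuclei, with a sum of 5609 and 5265 CPM in the TBI rats against 4381 and 3655 CPM, 6 of 8 higher in both TBI rats and none at 0, and their part in these differences was not tested. In microglia-like nuclei the same sum overlapped (5902 and 5169 against 6128 and 4457 CPM).

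In cluster 8 both genes lay above in both TBI rats. Map1a was 385 CPM in TBI rat 1, 1441 CPM in TBI rat 2, 212 CPM in the sham and 382 CPM in the naïve rat, so that TBI rat 1 and the naïve rat were level and TBI rat 2 stood alone. Mapk8ip2 was 151 and 356 CPM against 83.9 and 97.4 CPM. The differences were 1.39 and 1.35, and 0.44 and 0.74 without TBI rat 2. Map1b was 2445 and 3811 CPM against 1763 and 2270 CPM (0.61). Mitochondrial UMIs, which led the cluster, were 0.27% and 0.49% in the TBI rats against 0.53% and 0.36%. The 8 neuronal transcripts summed to 7255 and 8252 CPM against 7673 and 6440 CPM, none at 0, with 3 of 8 higher in both TBI rats. They did not move alike: Nrgn (549 and 1599 against 516 and 617 CPM) and Ddn (131 and 359 against 83.9 and 72.4 CPM) were highest in TBI rat 2, whereas Syt1 was lowest there (3118 and 2453 against 3716 and 2527 CPM). Markers of other types also stood apart in TBI rat 2, the 8 oligodendrocyte markers with 2889 CPM against 839 to 1208 CPM in the other rats and the 9 astrocyte markers with 3423 CPM against 1930 to 2587 CPM. For all of these, their part in the result was not tested. This cluster held 3.10% of all UMIs of TBI rat 2 but 17.1% of its Map1a UMIs, against 2.76% to 4.87% of the Map1a UMIs in the other rats. Over all nuclei without cluster 8, a choice made after seeing the data, the differences were 0.51 for Map1a and 0.31 for Mapk8ip2, and without astrocyte-like and pericyte-like nuclei as well they were 0.48 and 0.23, the latter with overlap.

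The counts over the remaining classes were read beside their backgrounds in the same way. Astrocyte-like nuclei had 5 members above and none below in both TBI rats (25% and 17.6% of all genes), oligodendrocyte-like nuclei 6 and none (22.4% and 8.99%), precursor-like nuclei 5 and none (18.8% and 13.4%) and microglia-like nuclei 4 and 1 (18.5% and 12.4%). In precursor-like nuclei 5 of the 8 neuronal transcripts were higher in both TBI rats, with overlapping sums (5126 and 4403 against 5113 and 3403 CPM), and their part was not tested. Endothelial cell-like nuclei had 3 and none (16.7% and 15.4%), pericyte-like nuclei 3 and 1 (18.1% and 14.6%) and cluster 8 had 6 and none (16.9% and 10.6%). In endothelial cell-like nuclei 6 of the 8 neuronal transcripts were higher in both TBI rats (sums of 4323 and 2652 against 2904 and 1930 CPM), and their part was not tested.

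**Figure D2:**
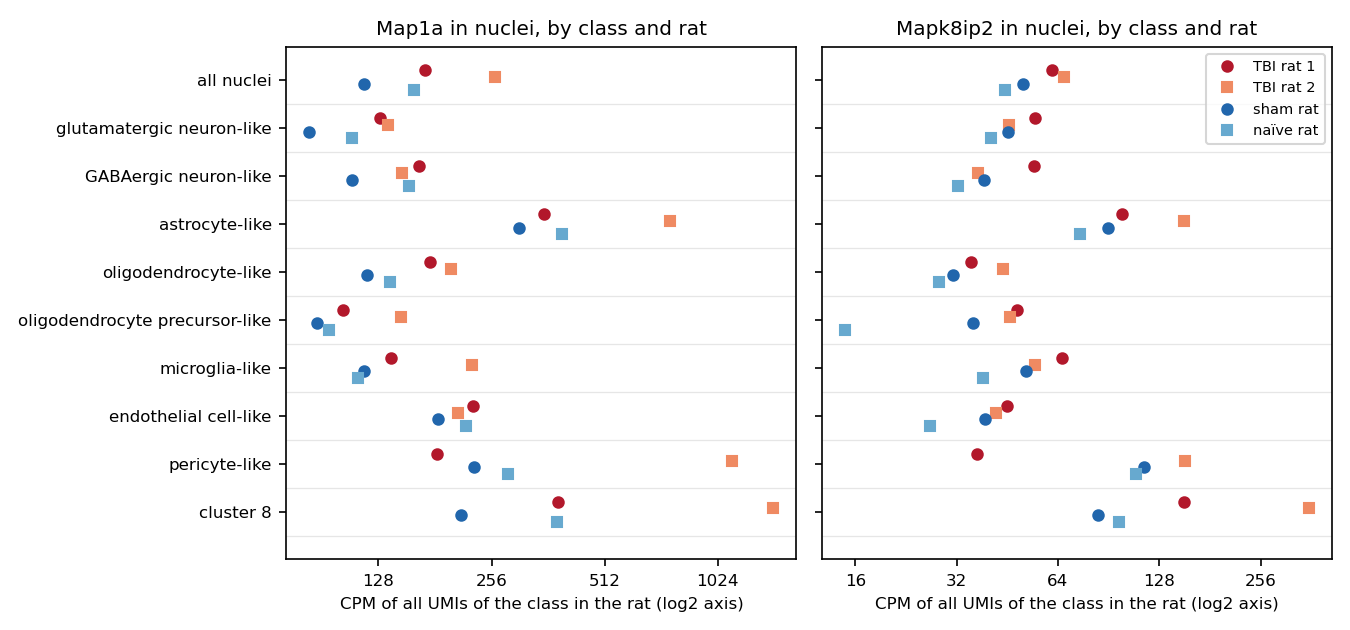
CPM of Map1a (left) and Mapk8ip2 (right) on a log2 axis, over all nuclei, in 8 named classes and in cluster 8, with 1 point per rat. TBI rat 2 stands apart for Map1a in astrocyte-like and pericyte-like nuclei and in cluster 8 (767, 1118 and 1441 CPM), whereas the TBI rats lie together in glutamatergic neuron-like nuclei (129 and 136 CPM).

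In bulk tissue of other rats, no member was higher after TBI. Map1a was 1316, 1818 and 1800 CPM (counts scaled to the library total) in sham libraries 1 to 3 and 1463, 1520 and 1387 CPM in TBI libraries 1 to 3. All TBI values lay between sham library 1 and the other two, and the log2 fold change was -0.21 ± 0.15 (SE, n = 3 per group; edgeR quasi-likelihood test, adjusted p = 0.724). It was -0.36 without sham library 1 and -0.13 without sham library 2. Mapk8ip2 was 449, 467 and 555 CPM in sham and 452, 499 and 433 CPM in TBI, with full overlap and a log2 fold change of -0.13 ± 0.12 (adjusted p = 0.817), or -0.03 without sham library 3 and -0.22 without TBI library 2. In bulk samples fewer cells of a type and less RNA per cell cannot be told apart.

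Map1b had the largest change, with 1493, 2136 and 1866 CPM in sham against 1450, 1501 and 1263 CPM in TBI. Its lowest sham value was below the highest TBI value, the log2 fold change was -0.42 ± 0.16, and its unadjusted p of 0.0317 gave an adjusted p of 0.440 in the same test. Map6 was the only member without overlap, with 70.7, 77.4 and 82.5 CPM against 67.8, 68.6 and 67.2 CPM (log2 fold change -0.22 ± 0.10, edgeR adjusted p = 0.559). Mapt was 624, 842 and 664 CPM against 630, 626 and 550 CPM (-0.28 ± 0.14, edgeR adjusted p = 0.630). Sham library 2, the highest for Mapt, also had the highest sum of the 8 oligodendrocyte markers (17472 CPM against 5215 to 8106 CPM in the others), and without it the change of Mapt was -0.13; the part of oligodendrocyte RNA was not tested. Map2, Map4, Mapk8ip1 and Mapk8ip3 changed by -0.08 ± 0.11, -0.12 ± 0.12, -0.11 ± 0.10 and -0.17 ± 0.11.

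None of the 9 members passed an FDR of 0.05 in edgeR, nor did any of the 14166 genes (0%), while 1360 genes (9.6%) had an unadjusted p under 0.05 and DESeq2 called 349 genes (2.47%), none of them a member. All 9 members had a negative log2 fold change (50.6% of all genes did), 1 had an unadjusted p under 0.05 in that direction (1.4% did) and 1 had all TBI libraries below all sham libraries (3.05% did). Their median was -0.17 against -0.003 over all genes. The 10 microglia markers had positive log2 fold changes in these libraries, 0 of them past the FDR, and summed to 316 to 325 CPM in sham and 570 to 1061 CPM in TBI, the 8 astrocyte markers summed to 4152 to 5037 CPM in sham and 7002 to 10051 CPM in TBI (7 of 8 with all TBI libraries above all sham libraries), and the 7 measured neuronal transcripts summed to 8888 to 10471 CPM in sham and 8118 to 9601 CPM in TBI, with 6 of 7 lower and none at 0; the part of this shift in the members' values was not tested. The bulk libraries were also split by the month of the date of injury in the deposited metadata. January to June was named spring here and July to December autumn. The log2 CPM difference of Map1a was -0.08 in spring (2 sham, 1 TBI) and -0.31 in autumn (1 sham, 2 TBI), and that of Mapk8ip2 was -0.02 and -0.26. Map2 was the only member with a positive value in either period (0.05 in spring). TBI library 3 stood apart in marker sums. The fibroblast markers summed to 934 CPM there (89.5 to 212 CPM in the others), the pericyte markers to 341 CPM (120 to 162 CPM) and the endothelial cell markers to 403 CPM (210 to 254 CPM). Without this library the log2 fold change of Map1a was -0.17 and that of Map1b -0.34, and the part of such RNA was not tested.

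**Figure D3:**
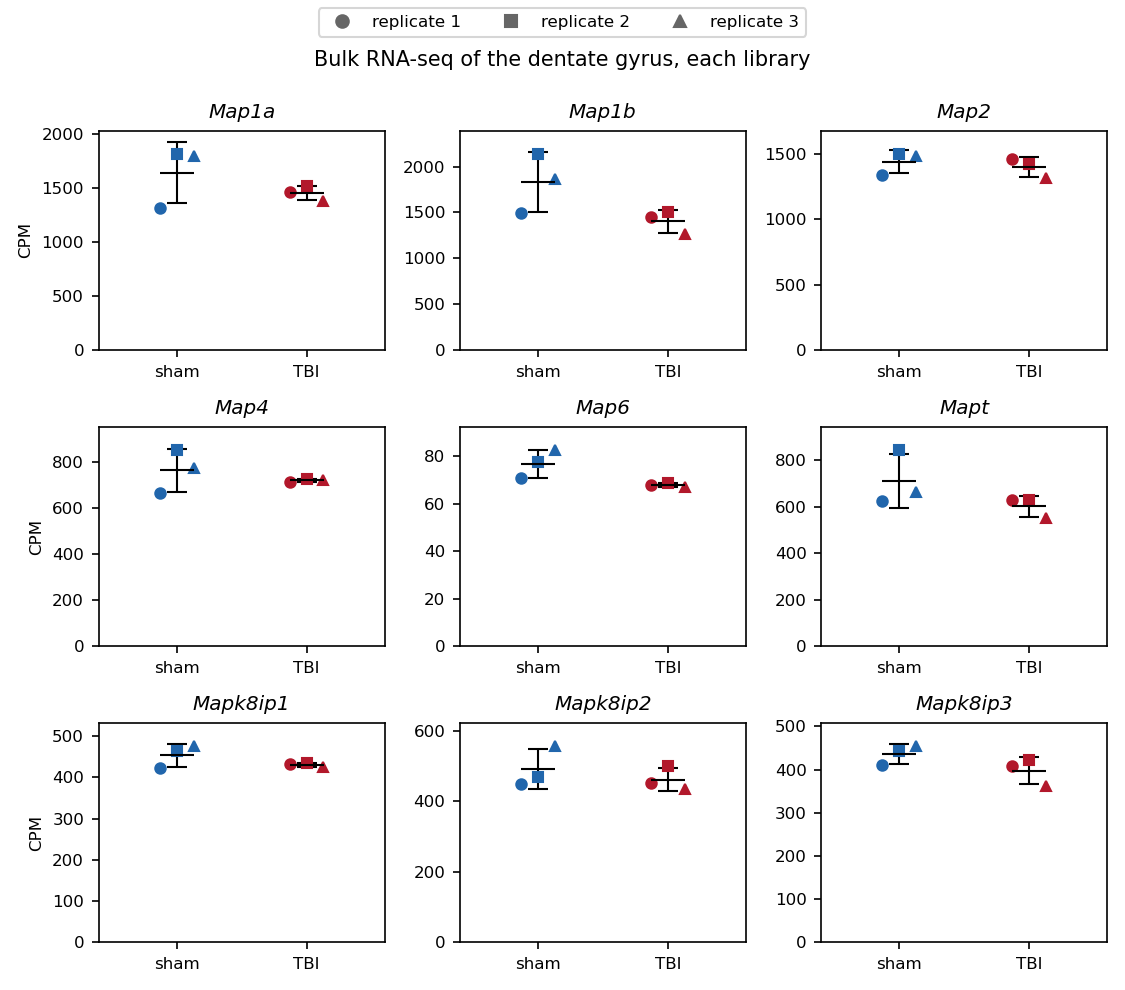
CPM of each member in the 3 sham and 3 TBI bulk libraries (y axes from 0), with the mean and SD in black. Groups overlap for 8 members, and for Map6 the TBI libraries (67.2 to 68.6 CPM) lie below the sham libraries (70.7 to 82.5 CPM).

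**Figure D4:**
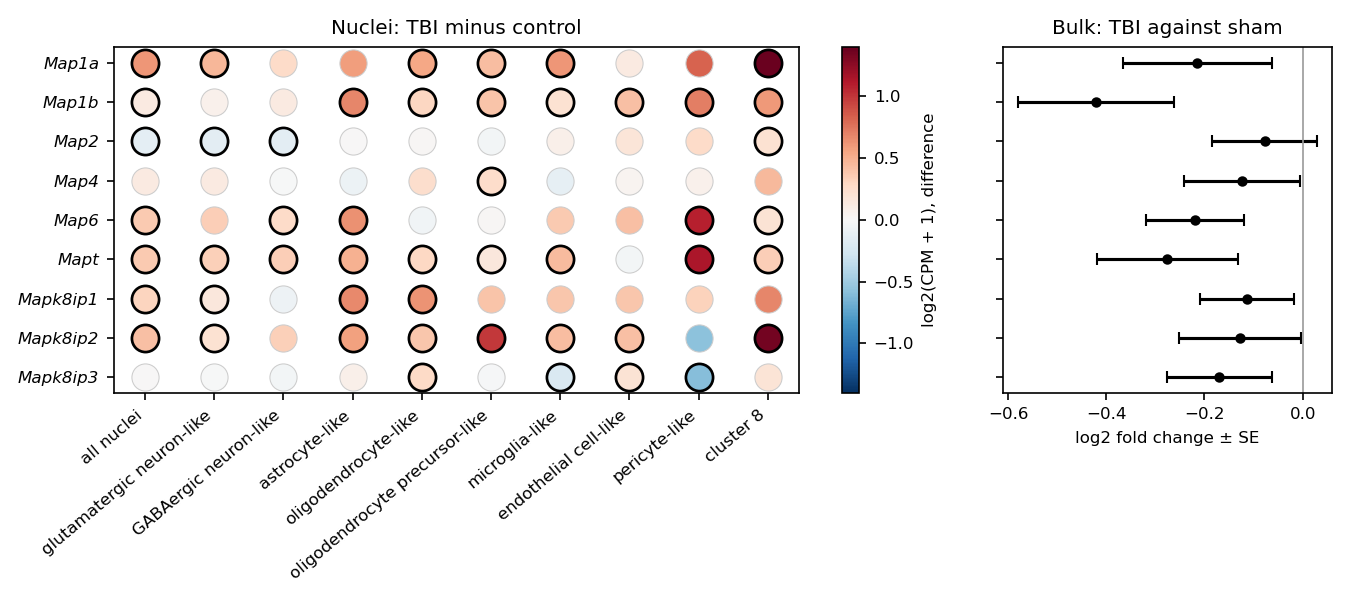
Left, difference of mean log2(CPM + 1), TBI minus control, for each member over all nuclei and by class (colour), with a black ring where both TBI rats lie on one side of both controls. Right, log2 fold change with SE in bulk, where every member lies below 0; in nuclei the range over members is -0.13 to 0.62 over all nuclei.

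The other genes of the pathway were taken from 5 lists. In bulk, 0 of the measured list genes passed the FDR in either direction. Of the tubulins and tubulin regulators 21 of 26 were lower (median log2 fold change -0.17), of the other microtubule-associated and plus-end proteins 24 of 28 (-0.13), of the JNK cascade 23 of 32 (-0.09), of the kinesin and dynein motors and adaptors 29 of 30 (-0.15) and of the tau kinases and phosphatases 24 of 27 (-0.13). These counts describe the lists beside the 50.6% and -0.003 of all genes.

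List genes whose TBI libraries all lay on one side of the sham libraries are named here, up to 3 per list (14.7% of all genes had such libraries). Tuba1c, an alpha-tubulin, was 6.28, 7.63 and 5.53 CPM in sham and 10.1, 13.7 and 35.9 CPM in TBI (log2 fold change 1.57 ± 0.45, edgeR unadjusted p = 0.0094 and adjusted p = 0.30), with TBI library 3 far above the other two. That library also had the highest fibroblast, pericyte and endothelial cell marker sums, and their part in the Tuba1c value was not tested. Tubb3, the neuronal beta-tubulin, was 299 to 390 CPM against 279 to 290 CPM (-0.27 ± 0.13), and Agtpbp1, which trims glutamates from tubulin tails, was 236 to 267 CPM against 204 to 233 CPM (-0.23 ± 0.11). Tppp, a tubulin-polymerising protein of oligodendrocytes, was 77.6 to 106 CPM against 53.0 to 76.3 CPM (-0.48 ± 0.18). Map9 was lower (-0.22 ± 0.09) and the plus-end protein Mapre1 higher (0.11 ± 0.08) in all TBI libraries. In the JNK cascade, the upstream kinase Map3k1 was 2.73 to 4.25 CPM against 4.85 to 5.95 CPM (0.59 ± 0.24), JNK2 (Mapk9) was 172 to 193 CPM against 154 to 168 CPM (-0.23 ± 0.10), and Junb, a partner of c-Jun in AP-1, was 40.2 to 43.0 CPM against 45.3 to 50.3 CPM (0.16 ± 0.10). Of the tau phosphatase genes, Ppp2r2a, a regulatory subunit of PP2A, was lower in all TBI libraries (-0.16 ± 0.10), and no motor gene met the rule.

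In nuclei, edgeR on UMI sums per rat called 0% of genes at an FDR of 0.05 over all nuclei, in each of the 8 named classes and in cluster 8, so none of the list genes was called there. Over all nuclei 607 of 17977 genes (3.38%) and 5 of the 143 list genes tested had an unadjusted p under 0.05, and DESeq2 called 6 genes, none of them in a list. The list medians over all nuclei were 0.20 for tubulins, 0.09 for the other microtubule-associated proteins, 0.09 for the JNK cascade, 0.07 for motors and 0.02 for tau kinases and phosphatases, against -0.01 over all genes. Of the list genes named from bulk, Agtpbp1, lower there, lay above in both TBI rats over all nuclei (257 and 261 against 241 and 186 CPM). Mapre1 did so too (45.6 and 50.3 against 44.2 and 40.7 CPM), and the others tested overlapped. Of all genes 23.3% lay above. In astrocyte-like nuclei DESeq2 gave an adjusted p to 5546 genes and called 252 of them, 164 higher. Among these 5546 were 99 list genes, of which 4 were called, all higher.

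The genes whose pattern was most like that of Map1a over 32 sums (8 named classes in 4 rats) were Prpf19, a splicing factor (Pearson r = 0.84), the alpha-tubulin gene Tuba4a (0.77), Clu, which encodes clusterin (0.76), LOC108351137 (0.76) and Ywhab, a 14-3-3 protein (0.76), among 11649 genes compared. Those most like Mapk8ip2 were Ift81 (0.80), Ppp1r9b, which encodes spinophilin (0.79), Hpcal4 (0.77), Map1a itself (0.75) and Ccdc122 (0.74). The sums share their libraries and depth, and the values are a description.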

How the data were processed

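The 9 members and the gene lists were chosen with earlier results of these data known. For the nuclei, the authors deposited UMI counts per gene and nucleus made with Cell Ranger on Rnor_6.0, intronic reads included. For bulk tissue, the authors deposited kallisto estimated counts of 31715 transcripts and log2 CPM of 14166 genes. Gene counts were worked back from the log2 values, rounded and tested with edgeR 4.0.16 (TMM, quasi-likelihood test, Benjamini-Hochberg adjustment, FDR 0.05), without covariates. The study's own criterion was a q of 0.01 with an absolute log2 fold change of 1.5. Transcripts could not be matched to genes and were not tested, and 5 of the 9 members had the counts of a single transcript (tolerance 0.001 counts). Of the genes, 13778 were named through the RefSeq table.

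Nuclei with at least 500 UMIs, 300 features, a log10 gene to log10 UMI ratio of 0.8, at most 5% mitochondrial and 2% ribosomal UMIs were kept and clustered in Seurat 5.3.0 with 25 components. A class needed 3 markers and a lead over every other class that also had 3. The lead was 0.25 in the share of markers, or 1.0 in the median log2 ratio with a share of at least 0.6. A cluster with markers of several classes could therefore stay unnamed. Doublets were scored with Scrublet in scanpy 1.11.5 and kept. The highest-scoring nuclei of each library were marked at an expected rate of 9.03% to 13.5%. Scrublet's own threshold called 387 nuclei in the sham library and 0 in each of the other libraries. UMIs were summed per class and rat, and the sums of the pathway lists were tested with edgeR. Replicate rats are few, so p-values measure only the spread between these samples. DESeq2 1.42.0 and other scalings, filters, doublet removal and the omission of each library were tried. For the pathway lists, up to 3 genes with the smallest p among those without overlap in bulk are named, and for Map1a and Mapk8ip2 the 5 genes most alike. The code was tested on simulated data.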

Additional observations from a re-analysis of the deposited data

Results flagged for a closer look

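Mapk8ip3 lay on opposite sides of the controls in different classes of nuclei. It was higher in both TBI rats than in both controls in oligodendrocyte-like nuclei (116 and 120 against 93.8 and 101 CPM, a log2 difference of 0.28) and in endothelial cell-like nuclei (101 and 101 against 96.8 and 80.2 CPM, 0.20). It was lower in both TBI rats in microglia-like nuclei (99.2 and 114 against 123 and 124 CPM, -0.22) and in pericyte-like nuclei (110 and 119 against 173 and 175 CPM, -0.60). Such positions were common among all genes: 22.4% lay above in oligodendrocyte-like and 16.7% in endothelial cell-like nuclei. In microglia-like nuclei 12.4% of all genes lay below, and in pericyte-like nuclei 14.6% did. The share of genes on opposite sides in different classes was not counted, and the difference between the classes was not tested. The pericyte-like values rest on 3, 7, 6 and 8 UMIs in TBI rat 1, TBI rat 2, the sham rat and the naïve rat. The oligodendrocyte-like difference was 0.04 without clusters 16 to 18, a choice made after seeing the data, 0.16 with TMM scaling, 0.41 with at least 1000 UMIs per nucleus and 0.35 without nuclei of high doublet score. Without those nuclei the endothelial cell-like difference was 0.35 and the pericyte-like one -0.34, and with TMM scaling the pericyte-like one was -0.69.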

How the results depend on the processing

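In bulk, each of the 9 members kept its negative direction and stayed short of the FDR under every alternative run. The number of genes past the FDR was 349 with DESeq2, 61 with the replicate number as a block, and 0 to 1 when libraries were left out (1 without TBI library 3). The deviations of same-numbered libraries correlated at 0.35, 0.17 and -0.03, so the numbers were not taken as pairs, and library 3 was not closest to its own number. Over all nuclei the Mapk8ip2 difference was 0.31 without cluster 8 and 0.23 without cluster 8, astrocyte-like and pericyte-like nuclei, both chosen after seeing the data. Leaving out each rat gave 0.32 to 0.93 for Map1a, with the lowest value without TBI rat 2, and 0.33 to 0.51 for Mapk8ip2. Without nuclei of high doublet score, Map1a in precursor-like nuclei fell to 0.15 and Mapt to 0.05. Calls among the pathway lists in nuclei were 4 with DESeq2 and 0 to 5 when rats were left out (5 without TBI rat 1, 2 without TBI rat 2 and 1 without the naïve rat). The transcript-level alternatives were not run. Pericyte-like nuclei (25 to 42 per rat) limit what can be read there.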
